A study of Mus musculus with 18 samples.

Results

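The genes described here are 10 that the endothelial-enriched cells of the mouse embryonic aorta region expressed and its hematopoietic progenitor cells hardly expressed: Agtr2, Matn3, Lect1, Moxd1, Lox, Fap, Myog, Best1, Zcchc5 and Nlgn3. They were picked from the 21881 gene symbols of the count tables for high levels in the first population and very low levels in the second, so that difference is a description of how they were chosen and was not tested, and the rule set no numeric threshold. RNA came from the aorta-gonad-mesonephros (AGM) region of E11 embryos of the C57BL6 BRE-GFP reporter strain, whose cells make green fluorescent protein (GFP) under a BMP-responsive element (BRE), and all groups carry it. Cells were sorted as MC (mesenchymal-enriched, CD31 negative and Kit negative), HPSC (enriched for hematopoietic progenitors and stem cells, CD31 positive and Kit positive) and EC (endothelial-enriched, CD31 positive and Kit negative). Each population came from AGM explants cultured with cyclopamine, an inhibitor of Hedgehog signalling, from explants cultured without it, and from fresh AGM. The study's design text puts BMP and Hedgehog in the explant conditions, so explants differ from fresh AGM in these factors as well as in culture, and the effects of the factors cannot be told apart from that of culture. Each was sorted further by GFP, into BRE-GFP positive and BRE-GFP negative fractions. The 18 combinations have a single library each. The labels do not say how many embryos were pooled, nor that libraries came from separate litters, so p-values measure only the spread between these libraries.

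Connective tissue is laid down by mesenchymal cells, which secrete collagens and other matrix proteins and cross-link them outside the cell. In the AGM, mesenchyme surrounds the dorsal aorta, in whose wall endothelial cells give rise to the first hematopoietic stem cells, and BMP and Hedgehog signals reach it from neighbouring tissues. Of the 10 genes, Matn3 (matrilin 3) and Lect1 (chondromodulin, now Cnmd) encode proteins of cartilage matrix, Lox encodes the lysyl oxidase that cross-links collagen and elastin, and Fap encodes a prolyl-specific protease of activated fibroblasts. Agtr2 encodes the type 2 receptor of angiotensin II, which is prominent in fetal mesenchyme, and Moxd1 encodes a relative of dopamine beta-hydroxylase, a copper-dependent monooxygenase. The others are not connective tissue genes by their known roles: Myog (myogenin) is a transcription factor of skeletal muscle differentiation, Best1 encodes a bestrophin chloride channel, Nlgn3 a neuroligin of the synapse, and Zcchc5 (now Rtl3) descends from the gag gene of a retrotransposon.

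The upstream regions of 4 of these genes show what their promoters share and where they differ: Agtr2, Lect1, Matn3 and Myog. Agtr2 and Lect1 had the highest levels. Matn3 reached its highest level in EC and not in MC, as did Moxd1, Lox, Best1, Zcchc5 and Nlgn3. Myog was higher in MC than in EC in all 6 matched pairs, as was Agtr2. RefSeq promoter sequences on GRCm38.p6 matched 7 of the 10 genes. Each line gives the 250 bases before the RefSeq start, 5′ to 3′ on the gene's strand, with E-boxes (CANNTG, the letters that the basic helix-loop-helix factors such as myogenin bind) in capitals. The Agtr2 stretch is chrX:21484374-21484623 on the plus strand, the Matn3 stretch chr12:8947679-8947928 on the plus strand, the Lect1 stretch chr14:79662184-79662433 on the minus strand and the Myog stretch chr1:134289754-134290003 on the plus strand.
Agtr2: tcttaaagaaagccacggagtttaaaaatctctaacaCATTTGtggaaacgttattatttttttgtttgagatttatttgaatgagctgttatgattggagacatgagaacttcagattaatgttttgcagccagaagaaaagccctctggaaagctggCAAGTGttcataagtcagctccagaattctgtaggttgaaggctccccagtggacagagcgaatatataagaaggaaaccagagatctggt
Matn3: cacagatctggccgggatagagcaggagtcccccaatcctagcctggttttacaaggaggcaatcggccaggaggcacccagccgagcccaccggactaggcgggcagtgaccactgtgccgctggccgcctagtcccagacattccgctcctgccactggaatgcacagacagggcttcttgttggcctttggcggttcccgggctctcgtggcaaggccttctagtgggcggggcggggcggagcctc
Lect1: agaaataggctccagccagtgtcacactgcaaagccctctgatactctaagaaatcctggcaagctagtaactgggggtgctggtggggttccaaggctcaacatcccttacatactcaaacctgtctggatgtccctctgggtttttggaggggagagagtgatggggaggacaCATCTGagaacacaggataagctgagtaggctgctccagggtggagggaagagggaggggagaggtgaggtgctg
Myog: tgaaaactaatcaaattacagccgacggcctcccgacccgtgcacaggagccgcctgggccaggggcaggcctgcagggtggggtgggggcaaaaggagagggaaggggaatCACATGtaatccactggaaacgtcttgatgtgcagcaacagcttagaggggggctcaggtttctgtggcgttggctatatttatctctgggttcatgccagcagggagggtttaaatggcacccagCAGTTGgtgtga
E-boxes began 213 and 91 bases before the start of Agtr2, 75 bases before that of Lect1, and 138 and 12 bases before that of Myog, and the Matn3 stretch held none. Among all 7 matched genes 5 held an E-box, Best1 and Moxd1 being the others, and 66.2% of 32851 mouse promoters of this length did too. A further 6 motifs, searched on both strands as the exact letters given next, were in 0 of the 7. Variants of these letters, such as other forms of the TATA box, were not searched. Of all promoters, 12.4% held the TATA box TATAAA, 0.2% the SMAD palindrome GTCTAGAC, 9.6% the SMAD element GGCGCC, 0.2% the GLI core GACCACCCA, 6.7% the AP-1 site TGANTCA and 9.4% the SOX core AACAAT. With 0 of these motifs in the 7 genes, an overlap with an E-box could not occur. The base composition differed among the 4, with 38.4% G and C in Agtr2, 65.2% in Matn3, 54.0% in Lect1 and 56.4% in Myog, against a median of 52.4% over all promoters. The RefSeq start differs from the 5′ end of the GENCODE gene for Agtr2, Lect1 and Myog and is the same for Matn3.

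Library depth was 3041249 to 21972063 reads counted in genes, and the lowest was HPSC cyclopamine BRE-GFP negative. Levels are given as CPM, counts scaled to library size with TMM factors. The label EC held as an enrichment against MC and not against HPSC. The summed level of 8 endothelial markers was 62.2 to 195 CPM in MC libraries (median 66.0). It was 316 to 7130 CPM in HPSC libraries (median 2260) and 441 to 7300 CPM in EC libraries (median 1320). EC fresh BRE-GFP negative was lowest in EC. EC libraries also held mesenchymal and macrophage markers, and the mesenchymal sum exceeded the endothelial one in all but EC fresh BRE-GFP positive. The 10 mesenchymal markers (Pdgfra, Col1a1, Dcn and others) summed to 2800 to 7920 CPM in MC, 346 to 950 CPM in HPSC and 1040 to 6980 CPM in EC, with none of the 10 at 0 in any EC library, and the 7 macrophage markers to 22.5 to 131, 570 to 3240 and 657 to 5590 CPM in the same order. In bulk RNA, fewer cells of a type and less RNA per cell cannot be told apart, and the part of mesenchymal cells among the sorted EC in the levels below was not tested.

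**Figure D1:**
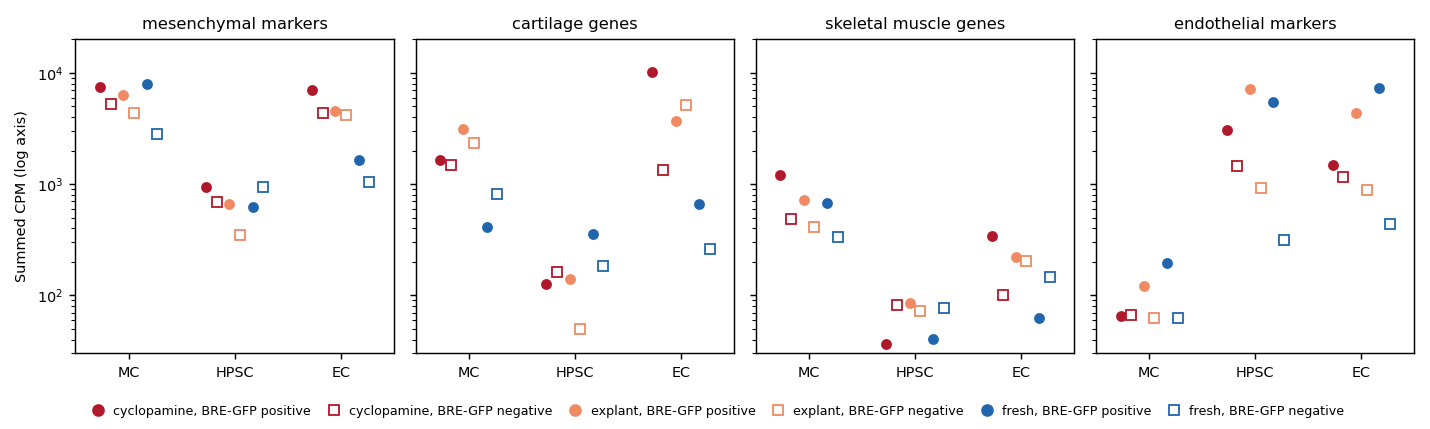
Summed CPM (log axis) of 4 marker lists in each of the 18 libraries, by population, with colours for culture and filled or open symbols for BRE-GFP positive or negative cells. In EC, the mesenchymal sums were 4200 to 6980 CPM in the 4 cultured libraries and 1040 to 1660 CPM in the fresh ones, and endothelial sums separated EC from MC.

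The receptor and the cartilage genes had the highest medians in EC, though Matn3 was among the low ones in MC. Agtr2 (chrX:21484544-21489164, GRCm38) ranged from 92.0 to 974 CPM in MC (median 610), from 0.636 to 19.8 CPM in HPSC (median 3.42) and from 11.9 to 439 CPM in EC (median 239). The lowest MC library was above every HPSC library, and 1 EC library, EC fresh BRE-GFP negative, lay below the highest HPSC library. Lect1 (chr14:79637690-79662170), known as an inhibitor of vessel growth in cartilage, ranged from 45.9 to 2572 CPM in MC (median 458), 0.954 to 13.2 CPM in HPSC (median 3.76) and 7.61 to 2314 CPM in EC (median 923). Matn3 (chr12:8947929-8972028) ranged from 1.80 to 62.2 CPM in MC (median 19.98), 0 to 1.40 CPM in HPSC (median 0.0599) and 0.566 to 286 CPM in EC (median 61.2). For both, EC fresh BRE-GFP positive lay below the highest HPSC library and the other 5 EC libraries above it.

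Lox, Fap and Moxd1 encode enzymes. Lox (chr18:52516067-52529867) ranged from 8.39 to 26.4 CPM in MC (median 20.2), 0 to 1.60 CPM in HPSC (median 0) and 1.26 to 50.2 CPM in EC (median 21.0). Fap (chr2:62500943-62574075) ranged from 33.0 to 83.1 CPM in MC (median 50.6), 0 to 2.27 CPM in HPSC (median 0.280) and 2.30 to 58.6 CPM in EC (median 16.2). Its EC libraries all lay above its HPSC libraries, though only just at the low end. Moxd1 (chr10:24223517-24302790) ranged from 22.6 to 62.6 CPM in MC (median 38.2), 0 to 5.92 CPM in HPSC (median 0) and 4.49 to 75.2 CPM in EC (median 17.3). In Lox and Moxd1 the lowest EC library, which was a fresh one, lay within the HPSC range. Lox overlaps an antisense gene, AC161119.1, and the strand setting of the counting is not given in the sources used here, so reads from the pair cannot be told apart.

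Among the genes of other tissues, Myog (chr1:134289989-134292548) ranged from 50.0 to 325 CPM in MC (median 79.9), 0 to 2.64 CPM in HPSC (median 0.271) and 2.08 to 71.8 CPM in EC (median 20.6). Zcchc5 (chrX:106837082-106840644) ranged from 28.8 to 81.3 CPM in MC (median 54.5), 0.120 to 6.54 CPM in HPSC (median 0.765) and 3.65 to 277 CPM in EC (median 54.8). Both had 1 EC library, EC fresh BRE-GFP positive, below the highest HPSC library. Nlgn3 (chrX:101299168-101325963) ranged from 1.60 to 59.3 CPM in MC (median 35.3), 0.159 to 2.94 CPM in HPSC (median 0.964) and 4.38 to 126 CPM in EC (median 34.7). Best1 (chr19:9985174-10001633), the lowest of the 10 by CPM, ranged from 0 to 8.76 CPM in MC (median 4.87), 0 to 0.134 CPM in HPSC (median 0) and 0.252 to 43.6 CPM in EC (median 6.54). For these 2 genes all EC libraries were above all HPSC libraries, and 1 MC library, MC fresh BRE-GFP positive, fell within the HPSC range. Nlgn3 overlaps Gm21986 on the same strand, so its count may hold or lack reads of that transcript.

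**Figure D2:**
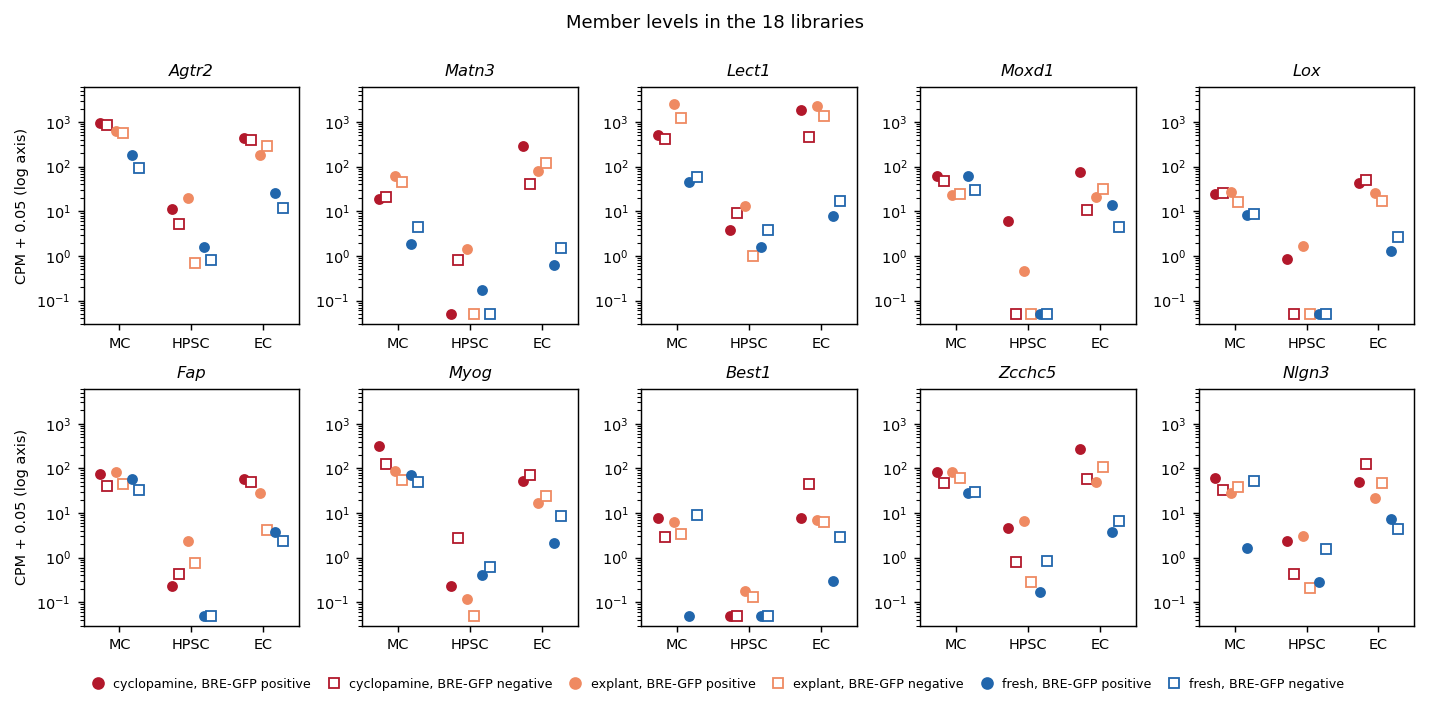
CPM + 0.05 (log axis) of the 10 genes in the 18 libraries, by population, with colours for culture and filled or open symbols for BRE-GFP positive or negative cells. HPSC libraries sit lowest, though some fresh libraries (blue) of EC or MC fall within their range. The median over the 10 genes of the mean CPM was 5.18 in fresh EC, 30.7 in EC explants and 75.1 in EC with cyclopamine. In MC it was 37.0, 58.4 and 56.5 in the same order. EC levels entered the choice of the genes.

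Low was not absent: summed over the 6 HPSC libraries the genes had 3 (Best1) to 463 (Agtr2) counts. A count of 0 was seen in 4 HPSC libraries for Moxd1, Lox and Best1, in 3 for Matn3, in 2 for Fap and in 1 for Myog, and in none for the other four. With 3 counts as the limit that a count of 0 allows, such a library could still hold 0.238 to 1.13 CPM, counting error only. HPSC explant BRE-GFP positive was the highest HPSC library for 8 of the 10 genes and had no gene at 0. It also had the most genes with a count among HPSC libraries, 18155, against 14875 in HPSC explant BRE-GFP negative, the next highest. How many of all genes had their HPSC maximum there was not counted. Moxd1 reached 5.92 CPM in HPSC cyclopamine BRE-GFP positive, which made up 93.7% of its summed HPSC level.

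Per kilobase of exon, the order in EC began with Lect1 (543 ± 530 CPM per kb), Agtr2 (67.9 ± 55.2), Matn3 (29.3 ± 35.7), Zcchc5 (28.4 ± 34.5) and Myog (19.7 ± 18.2; SD, n = 6 libraries each). Moxd1 (8.18 ± 8.09 CPM per kb), Lox (4.87 ± 4.28), Nlgn3 (4.62 ± 4.88), Best1 (4.35 ± 6.24) and Fap (4.33 ± 4.45) followed. The SD was near or above the mean for each gene, and no neighbours in this order differed by more than the SD of the higher one. In MC the order was Lect1 (439 ± 526 CPM per kb), Agtr2 (167 ± 107), Myog (79.9 ± 69.9) and Zcchc5 (18.6 ± 8.01), with Moxd1, Fap and then Matn3 (8.44 ± 7.80) next.

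Fitted over all genes, with each HPSC library matched to the EC library of its own culture and fraction, the log2 fold change of HPSC over EC was -7.46 (Matn3) to -4.99 (Nlgn3), with a median of -5.90 for the 10 genes and -0.17 for all 16231 genes tested. The same contrast called 0.32% of all genes at an adjusted p under 0.05 (edgeR quasi-likelihood test), and since it chose the 10 genes nothing is read from their place in it. HPSC was below EC in 60 of 60 matched pairs of a gene and a condition. The median difference in log2 CPM was -4.20 to -7.41 in the 4 cultured conditions, and -3.42 (BRE-GFP positive) and -3.59 (BRE-GFP negative) in fresh cells.

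MC, whose libraries took no part in the choice, held the 10 genes at levels near those of EC on average. The log2 fold change of MC over EC ran from -0.92 (SE 1.0) for Matn3 to 2.32 ± 0.72 (SE) for Myog, with a median of 0.38, against 0.20 for all genes. Agtr2 (1.69 ± 0.50) and Fap (2.10 ± 0.91) stood with Myog on the MC side, and Best1 (-0.81 ± 1.08) and Nlgn3 (-0.35 ± 0.80) with Matn3 on the EC side. These values carry no test because the EC libraries chose the genes.

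The average covered unlike values in cultured and fresh cells, a contrast described here without a test. In the 4 cultured conditions the medians of the MC minus EC difference of the 10 genes were -0.30 to 0.26 in log2 CPM, against 2.58 (BRE-GFP positive) and 2.34 (BRE-GFP negative) in fresh cells. The 10 mesenchymal markers had medians of 0.12 to 0.48 in the cultured pairs and 2.30 and 1.26 in the fresh ones. As ratios of mean CPM, EC over MC was 0.0661 (Fap) to 0.354 (Best1) in fresh cells. Under cyclopamine it was 8.18 for Matn3, with 19.2 and 20.8 CPM in MC and 286 and 40.6 CPM in EC, and 4.89 for Best1, where EC cyclopamine BRE-GFP negative alone gave 64.7% of the summed EC level. Myog stayed below MC in every condition, with EC over MC ratios of 0.275 under cyclopamine, 0.292 in explants and 0.0847 in fresh cells.

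**Figure D3:**
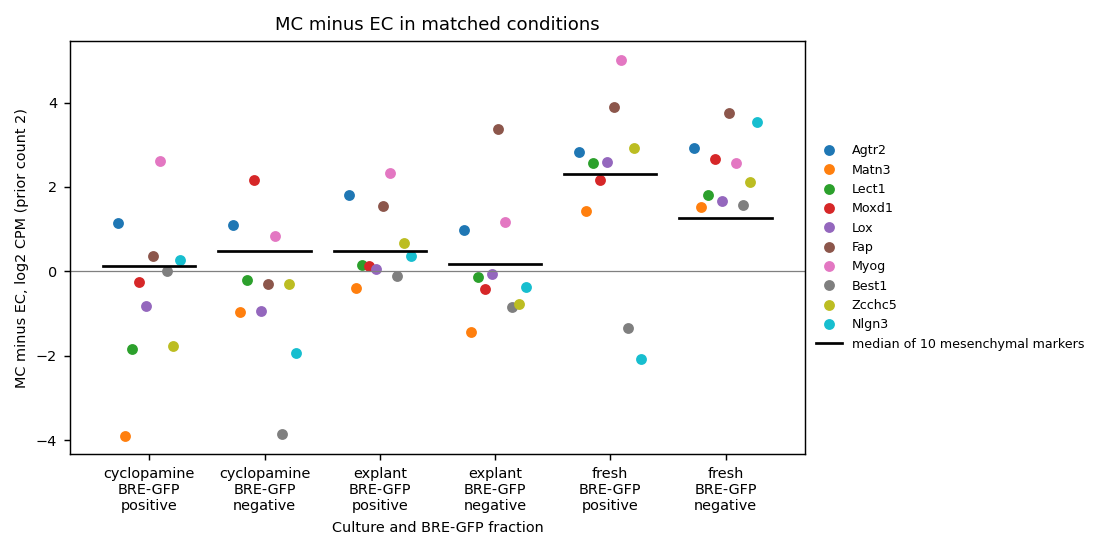
MC minus EC difference in log2 CPM (prior count 2) for each gene in the 6 matched conditions, with the median of 10 mesenchymal markers as a line. In the cultured conditions the genes lie on both sides of 0, and in fresh cells most lie above it, with medians of 2.58 and 2.34.

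The culture comparison asks what changed between explants and freshly sorted cells. Agtr2 had higher values in explants than in fresh cells in MC and EC. It had 643 and 576 CPM in MC explants (BRE-GFP positive and negative) against 187 and 92.0 CPM in fresh MC, 19.8 and 0.636 CPM in HPSC explants against 1.56 and 0.775 CPM in fresh HPSC, and 184 and 293 CPM in EC explants against 26.0 and 11.9 CPM in fresh EC. Explant and fresh values did not overlap in MC or EC, and in HPSC the negative explant library was below both fresh ones. How often all genes show such a split was not counted. The log2 fold change over all populations was 2.69 ± 0.47 (SE) with an adjusted p of 0.0359 in edgeR's quasi-likelihood test, and the value was higher in 5 of 6 matched pairs. That call held in 6 of 18 fits that each left out 1 library, with adjusted p from 0.00452 to 0.140 and log2 fold changes from 2.37 to 2.97. It was kept without either EC cyclopamine library, HPSC fresh BRE-GFP negative, HPSC cyclopamine BRE-GFP negative, HPSC explant BRE-GFP negative or MC cyclopamine BRE-GFP positive, and lost without any of the other 12. Within populations Agtr2 did not pass in the same test. Its log2 fold change was 2.2 ± 0.74 in MC (adjusted p = 0.983) and 3.7 ± 0.8 in EC (adjusted p = 0.29). The fit over all populations includes the EC and HPSC levels that entered the choice of the gene.

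Agtr2 was the 1 of the 10 genes that passed, against 0.136% of all genes (22 of 16231). All 10 had log2 fold changes above 0, from 0.26 to 4.77 with a median of 2.39, against 0.18 for all genes, though Moxd1 was at -0.33 without EC explant BRE-GFP negative and Myog reached -0.20 without a fresh EC library. Of the 10, 6 had an unadjusted p under 0.05, as did 8.58% of all genes. EC's mean level, which cultured libraries set for the most part, entered the choice of the genes, so a culture difference in EC is not independent of it. The counts of the 10 genes in EC, and over all populations, which include EC, are thus descriptions. DESeq2 called 4 of the 10 over all populations, Agtr2, Matn3, Lect1 and Lox, against 2.86% of all genes.

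The cartilage genes had the largest differences without passing in edgeR. Lect1 had 2572 and 1260 CPM in MC explants against 45.9 and 58.3 CPM in fresh MC, and 2314 and 1377 CPM in EC explants against 7.61 and 16.6 CPM in fresh EC. In HPSC it had 13.2 and 0.954 CPM in explants against 1.56 and 3.78 CPM in fresh cells, a range that overlapped. Its log2 fold change was 7.09 ± 1.17 in EC (adjusted p = 0.117, edgeR quasi-likelihood test), 5.12 ± 1.06 in MC (adjusted p = 0.547) and 4.45 ± 0.95 over all populations (adjusted p = 0.0855). Its value in EC passed in 4 of the 18 fits that left out 1 library, those without HPSC explant BRE-GFP positive or negative or MC cyclopamine BRE-GFP positive or negative, with a lowest adjusted p of 0.0131. These 4 fits kept all EC libraries, and the log2 fold change stayed at 7.07 to 7.09. High EC levels also chose the gene, so the passes lend no support. Matn3 had 62.2 and 44.2 CPM in MC explants against 1.80 and 4.44 CPM in fresh MC, and 81.8 and 120 CPM in EC explants against 0.566 and 1.42 CPM in fresh EC, with log2 fold changes of 4.15 ± 1.66 in MC and 6.65 ± 1.85 in EC. Neither gene's explant and fresh values overlapped in these 2 populations, with 2 libraries against 2 in each, a split that was not counted over all genes.

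In EC each of the 10 genes was higher in the explant library than in its fresh partner in both BRE-GFP fractions, 20 of 20 pairs, by 0.60 to 8.22 in log2 CPM. The EC fit gave log2 fold changes of 2.02 (Moxd1) to 7.09 (Lect1) with a median of 3.28, against -0.01 for all genes. By edgeR 0 of the 10 passed in EC, against 0.00616% of all genes, with 6 at an unadjusted p under 0.05 (2.3% of all genes). DESeq2 called Agtr2, Matn3, Lect1 and Lox in EC, against 0.733% of all genes. Since high EC levels, mostly those of cultured libraries, chose the 10 genes, these EC counts are descriptions and lend no support. The 10 mesenchymal markers had a median log2 fold change of 1.39 in EC (10 of 10 above 0, 0.78 to 2.96) and the 13 cartilage genes one of 4.72 (13 of 13 above 0), with 0 passing in either list by edgeR, 5 and 11 at an unadjusted p under 0.05, and 1 and 7 called by DESeq2. The summed level of cartilage genes was 3680 to 5100 CPM in EC explants against 262 to 666 CPM in fresh EC, and that of mesenchymal markers 4200 to 4500 CPM against 1040 to 1660 CPM. The part of either in the difference of the 10 genes was not tested. At 0 in some EC libraries were Col11a2 and Comp (2 each) and Acan, Matn1 and Sox6 (1 each).

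MC showed a narrower picture. There 16 of 20 pairs were higher in explants, and log2 fold changes ran from -0.86 (Moxd1) to 5.12 (Lect1) with a median of 1.04, against 0.39 for all genes. By edgeR 0 of the 10 passed in MC and 0% of all genes did, with 3 of the 10 (Lect1, Agtr2 and Matn3) at an unadjusted p under 0.05 (2.48% of all genes). DESeq2 called Lect1, against 0.413% of all genes. Moxd1 had 22.6 and 24.3 CPM in MC explants against 61.7 and 29.2 CPM in fresh MC, and 20.8 and 32.4 CPM in EC explants against 13.7 and 4.49 CPM in fresh EC. Mesenchymal markers had a median of -0.34 in MC, and cartilage genes 2.63.

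The EC minus MC difference of the explant effect was above 0 for all 10 genes, from 1.51 (Agtr2) to 2.88 (Moxd1) in log2 with a median of 2.12, against -0.28 for all genes. No difference passed in edgeR, for the 10 or for any gene (0%), with 0 of the 10 at an unadjusted p under 0.05 (lowest p 0.132; 0.795% of all genes) and 0 of the 10 called by DESeq2 (0.0185%). A larger effect in EC than in MC was thus not shown at this number of libraries.

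**Figure D4:**
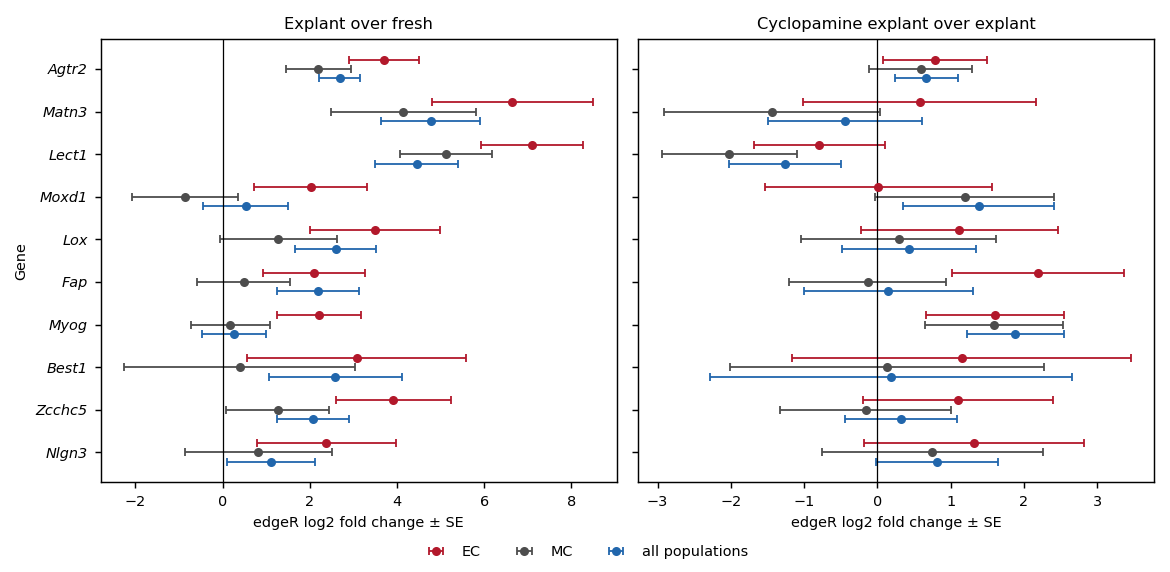
edgeR log2 fold changes ± SE of the 10 genes for explant over fresh (left) and cyclopamine explant over explant (right), in EC, in MC and over all populations. On the left, every EC value lies above 0 (2.02 to 7.09), and on the right values lie on both sides of 0, from -2.02 (Lect1, MC) to 2.19 (Fap, EC).

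The cyclopamine comparison asks what blocking Hedgehog signalling changed in the explants, and it shares the explant libraries with the comparison above. By edgeR 0 of the 10 genes passed over all populations and 0% of all genes did, with Myog the 1 at an unadjusted p under 0.05 (8.13% of all genes), and DESeq2 called 0 of the 10 (1.08%). Log2 fold changes ran from -1.26 to 1.88 with a median of 0.38, against -0.27 for all genes. Myog had 325 and 128 CPM in MC with cyclopamine against 87.0 and 54.1 CPM in MC explants, and 52.9 and 71.8 CPM in EC with cyclopamine against 17.1 and 24.2 CPM in EC explants. In HPSC it had 0.182 and 2.64 CPM with cyclopamine against 0.0668 and 0 CPM in explants. Its cyclopamine value was the higher in 6 of 6 pairs, a result not counted over all genes. The HPSC pairs rest on 2 counts against 1 (BRE-GFP positive) and 7 counts against 0 (BRE-GFP negative). The log2 fold change of Myog was 1.88 ± 0.66 with an unadjusted p of 0.011 and an adjusted p of 0.403 in edgeR's quasi-likelihood test.

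Myogenin acts together with other muscle genes, whose values mostly did not share its direction across populations, while in MC most did. The 14 skeletal muscle genes had a median log2 fold change of -0.78 for cyclopamine over explant across populations, with 2 of 14 above 0 (edgeR called 0, 1 had an unadjusted p under 0.05, DESeq2 called 0), and in MC one of 0.66 with 10 of 14 above 0. They summed to 481 to 1200 CPM in MC with cyclopamine against 409 to 713 CPM in MC explants, and 101 to 341 CPM in EC with cyclopamine against 202 to 221 CPM in EC explants. Myod1, which acts above Myog in the muscle programme, was at 0 in 3 EC libraries and 4 HPSC libraries, and Myf5 in 3 and 2 of them. Each was also at 0 in 1 MC library. Their MC means were 5.86 CPM (Myod1) and 20.1 CPM (Myf5), against 119 CPM for Myog. Myog was chosen for its EC level, so nothing is read from its reads in EC beside these zeros.

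Lect1 had lower values with cyclopamine, without passing. It had 510 and 407 CPM in MC with cyclopamine against 2572 and 1260 CPM in MC explants, and 1817 and 468 CPM in EC with cyclopamine against 2314 and 1377 CPM in EC explants. The pair differences were below 0 in 5 of 6 cases, and the log2 fold change was -1.26 ± 0.76 over all populations (adjusted p = 0.786, edgeR). In EC 15 of 20 pairs of a gene and a fraction were higher with cyclopamine, with a median log2 fold change of 1.11 over the 10 genes, against -0.36 for all genes, and in MC 10 of 20 were, with a median of 0.21. By edgeR 0 of the 10 passed in EC and 0 in MC (0% of all genes in each), with 0 and 1 at an unadjusted p under 0.05 (4.2% of all genes in EC, 0.659% in MC). DESeq2 called 0 of the 10 in both (0.844% and 0% of all genes). For the EC minus MC difference of the cyclopamine effect edgeR called 0 of the 10 and 0% of all genes, 0 of the 10 had an unadjusted p under 0.05 (1.01% of all genes), and DESeq2 called 0 of the 10 (0.037%).

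EC cyclopamine BRE-GFP positive stood out among the cultured EC libraries. Its cartilage sum was 10200 CPM, against 1340 CPM in EC cyclopamine BRE-GFP negative, and it held the EC maximum of Agtr2, Matn3, Moxd1, Fap and Zcchc5. Zcchc5 had 277 CPM there and 59.0 CPM in the negative partner, and Matn3 286 and 40.6 CPM. Best1, Nlgn3, Lox and Myog had their EC maximum in EC cyclopamine BRE-GFP negative, with 43.6 CPM for Best1 against 7.60 CPM in the positive partner.

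The BRE-GFP comparison asks whether cells with a response to BMP differ from those without. None of the 10 passed: by edgeR 0 of the 10 were called over the 9 pairs, against 0.0554% of all genes, 0 of the 10 had an unadjusted p under 0.05 (lowest 0.0681, Agtr2; 5.3% of all genes), and DESeq2 called 0 of the 10 (2.25%). Agtr2 was higher in BRE-GFP positive cells in 8 of 9 pairs, with a log2 fold change of 0.81 ± 0.41, and Fap in 7 of 9, with 0.95 ± 0.51. Moxd1 had the largest log2 fold change, 1.47 ± 0.76, of which HPSC with cyclopamine gave the widest pair difference, 5.19. Best1 had -1.0 ± 1.3, with a pair difference of -5.74 in fresh MC, where the positive library had 0 counts (at most 0.599 CPM at the limit of 3 counts) and the negative one 8.76 CPM.

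Within populations, positive cells were higher in 20 of 30 pairs of a gene and a culture in MC, 17 of 30 in HPSC and 14 of 30 in EC. By edgeR 0 of the 10 passed in EC, against 0.0123% of all genes, and 0 in MC, against 0%, with 0 of the 10 at an unadjusted p under 0.05 in either (4.29% and 0.431% of all genes) and 0 called by DESeq2 (2.5% and 0.0308%). For the EC minus MC difference of the BRE-GFP effect edgeR and DESeq2 called 0 of the 10, against 0% and 0.173% of all genes, and 0 of the 10 had an unadjusted p under 0.05 (1.97% of all genes). In HPSC explants the positive library exceeded the negative one for each of the 10 genes, for example by 4.63 in log2 CPM for Agtr2 and 4.05 for Zcchc5, but Myog had 1 count against 0 and Best1 2 counts against 1. The positive library also had higher marker sums than the negative one, 7130 against 915 CPM for endothelial and 665 against 346 CPM for mesenchymal markers. More genes had a count in it, 18155 against 14875, and the share of all genes higher in it was not counted. The part of the marker sums or of gene detection in the difference was not tested.

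**Figure D5:**
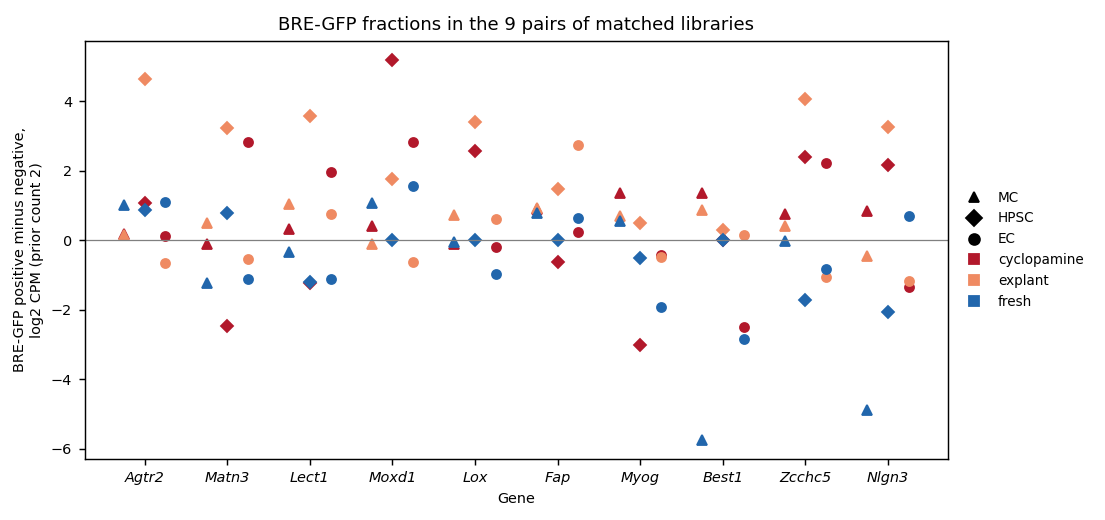
BRE-GFP positive minus negative difference in log2 CPM (prior count 2) for each gene in the 9 pairs of matched libraries, with symbols for population and colours for culture. Pairs scatter on both sides of 0 for every gene, from -5.74 (Best1, fresh MC) to 5.19 (Moxd1, HPSC with cyclopamine), and Agtr2 has 8 of 9 above 0.

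The relatives and partners of the 10 genes came from 10 lists with 84 genes, 79 of them tested: renin-angiotensin genes, matrilins and cartilage matrix partners, BRICHOS domain genes, copper monooxygenases, lysyl oxidases and elastic fibre genes, prolyl peptidases, myogenic genes, bestrophins, retrotransposon gag-derived genes, and neuroligins and neurexins. Between HPSC and EC, 3 of the 79 fell and 0 rose, with a background of 0.283% of all genes lower. The median log2 fold change of the 79 was -1.26. Col9a3, a chain of the cartilage collagen that matrilins bind, averaged 0.387 ± 0.579 CPM in HPSC and 81.2 ± 93.8 CPM in EC (SD, n = 6 each, adjusted p = 0.0306, edgeR). Loxl3, a lysyl oxidase-like enzyme, averaged 3.71 ± 2.85 CPM in HPSC and 64.0 ± 69.1 CPM in EC (SD, n = 6 each, adjusted p = 0.0489, edgeR). Fbn2, a microfibril protein on which elastin is laid down, averaged 86.5 ± 34.9 CPM in HPSC and 245 ± 89.7 CPM in EC (SD, n = 6 each, adjusted p = 0.0389, edgeR). The number of genes that this contrast called ranged from 1 to 77 over the fits that left out 1 library each, with 1 call left without EC explant BRE-GFP positive or negative, HPSC explant BRE-GFP negative, HPSC cyclopamine BRE-GFP positive or MC explant BRE-GFP negative. It was 2 to 31 without EC cyclopamine BRE-GFP positive or negative, HPSC fresh BRE-GFP positive, HPSC cyclopamine BRE-GFP negative, HPSC explant BRE-GFP positive, MC fresh BRE-GFP negative, MC cyclopamine BRE-GFP positive or MC explant BRE-GFP positive. Col9a3 was called in 9, Loxl3 in 4 and Fbn2 in 3 of those 18 fits, each below 0 in all of them, and DESeq2 called 20 of the 79, all lower in HPSC, against 4.9% of all genes in either direction.

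Mesenchymal and cartilage marker lists, which share some genes with the relatives, also held calls between HPSC and EC, where edgeR called 0.283% of all genes lower. Of 10 mesenchymal markers 5 fell (Col1a1, Dcn, Lum, Pdgfra and Pdgfrb) and 0 rose, with a median log2 fold change of -2.27. Of 13 cartilage genes 4 fell (Col11a1, Col2a1, Col9a3 and Sox9) and 0 rose, with a median of -4.63, and Sox9, the transcription factor of cartilage formation, had -3.76 ± 0.71 (adjusted p = 0.0349, edgeR). Each of these genes was called in 4 to 9 of the 18 fits without 1 library. DESeq2 called 9 of the mesenchymal markers and 12 of the cartilage genes, all lower in HPSC, against the same 4.9% of all genes. Of 14 skeletal muscle genes 0 passed in edgeR, 4 had an unadjusted p under 0.05 (9.32% of all genes) and DESeq2 called 3, with a median of -2.56.

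Between MC and EC, 1 of the 79 relatives rose and 2 fell, with a background of 2.54% of all genes called. Dbh, which makes noradrenaline and shares its domain with Moxd1, averaged 83.5 ± 64.2 CPM in MC and 9.58 ± 13.2 CPM in EC (SD, n = 6 each, adjusted p = 0.0128, edgeR). Itm2b, which has the BRICHOS domain of Lect1, averaged 188 ± 103 CPM in MC and 593 ± 378 CPM in EC (SD, n = 6 each, adjusted p = 0.0301, edgeR). Mef2c, a partner of myogenic factors that endothelial cells and macrophages also express, averaged 159 ± 45.7 CPM in MC and 480 ± 237 CPM in EC (SD, n = 6 each, adjusted p = 0.00794, edgeR). Mef2c was called in 18, Dbh in 16 and Itm2b in 11 of the 18 fits without 1 library. Over all populations edgeR called 0 of the 79 for explant over fresh, cyclopamine over explant or BRE-GFP positive over negative (0.136%, 0% and 0.0554% of all genes). In the same order, 16, 3 and 9 had an unadjusted p under 0.05 in edgeR (8.58%, 8.13% and 5.3% of all genes). DESeq2 called 8, 0 and 3 (2.86%, 1.08% and 2.25% of all genes).

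Other angiotensin receptors stayed low. Agtr1a averaged 6.53 ± 5.28 CPM in MC, 0.155 ± 0.294 CPM in HPSC and 2.04 ± 2.88 CPM in EC (SD, n = 6 each) and was at 0 in 3 EC libraries. The other matrilins had EC levels of 227 ± 301 CPM (Matn1), 87.6 ± 87.2 CPM (Matn2) and 15.1 ± 22.5 CPM (Matn4; SD, n = 6 each). Like Matn3, all 3 had higher values in explants, with mean values of 294, 90.9 and 22.5 CPM in EC explants against 4.93, 4.81 and 0 CPM in fresh EC. Itm2a, the BRICHOS gene with the highest CPM of its list, averaged 3180 ± 1810 CPM in MC, 609 ± 240 CPM in HPSC and 2180 ± 1620 CPM in EC (SD, n = 6 each), with 2660 CPM in EC explants and 422 CPM in fresh EC. Beside Best1, the bestrophin Best3 averaged 0.635 ± 0.815 CPM in MC, 0.104 ± 0.214 CPM in HPSC and 0.392 ± 0.961 CPM in EC (SD, n = 6 each), and Best2 had no count in HPSC.

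The genes most like the 10 in pattern were named by their Pearson correlation with the mean of the 10 standardised profiles. Over all 18 libraries these were Cdo1 (r = 0.958), Sema3c (0.948), Col11a1 (0.939), Nfia (0.933), Dcn (0.931) and Fibin (0.930). Within the 12 EC and MC libraries they included Islr (0.974), Capn6 (0.971), Lrrc17 (0.967), Cspg4 (0.953) and Matn2 (0.949). The points share populations, cultures and depth, so these values are descriptions. Islr averaged 305 ± 134 CPM in MC, 52.7 ± 42.4 CPM in HPSC and 208 ± 175 CPM in EC (SD, n = 6 each), and Cdo1, a cysteine dioxygenase, 23.1 ± 11.2, 0.384 ± 0.570 and 8.95 ± 7.39 CPM in the same order. Among the 10 themselves, the correlation with that mean over the 12 EC and MC libraries was highest for Lox (0.963) and Zcchc5 (0.948) and lowest for Moxd1 (0.591) and Best1 (0.637). Each of the 10 is part of that mean, which raises its value, so these are not comparable with the values of the other genes.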

How the data were processed

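Bulk RNA-seq of 18 sorted cell libraries was analysed from the tables the authors deposited, each holding the raw counts of 1 library by gene symbol, whole numbers with no normalization. Per the labels' protocols, RNA was prepared with mirVana and SMARTer kits; TopHat, Cufflinks and HTSeq, with the build mm10, stand in the submitters' processing notes. Tool versions, annotation and strandedness: not given in the sources used here. Lines that name no gene were left out: reads at no feature were 19.51 to 49.41% and ambiguous reads 0.479 to 0.935%. By culture, reads at no feature were 35.0 to 49.41% in explants, 19.51 to 33.01% in explants with cyclopamine and 21.74 to 41.96% in fresh cells. Explants with and without cyclopamine thus did not overlap in this share, and its part in the culture differences was not tested. The tables list reads aligned to more than 1 place apart from the genes.

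Groups came from the sample titles. The quasi-likelihood F test of edgeR 4.0.16 (R 4.3.3) was run on the counts of all 18 libraries after TMM scaling, and a gene was called at a Benjamini-Hochberg adjusted p under 0.05 over all genes tested. Genes with at least 10 counts at the median library size (0.796 CPM) in at least 3 libraries were tested, 16231 of 21881, among them all 10 described. Populations were compared within 6 blocks of culture and BRE-GFP fraction, cultures within 6 blocks of population and fraction, and fractions within 9 pairs; effects within EC and MC came from 1 model with a mean for each population and culture and a BRE-GFP effect for each population. Residual degrees of freedom were 10, 10, 8 and 6. No combination has a repeat library. Log2 CPM used a prior count of 2. The tests were tried on simulated counts first. Alternatives were RLE scaling, no filter, DESeq2 1.42.0 (its calls are given as a share of the 16231 genes fitted), each library left out, and fits on EC or MC alone. Coordinates are from GENCODE M21 (GRCm38, the assembly mm10 names), with current symbols matched through RefSeq.

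The 10 genes, the gene lists and the tests were chosen with earlier results of these data known. Named besides the 10 were genes of the lists that passed a test, up to 4 of a list by mean CPM, and the 6 genes most correlated with the 10 in each set of libraries, predicted genes and small RNAs skipped; 1 gene of the second set is not reported here. Agtr1a, Matn4, Best2, Best3 and Sox9 were named after their values were seen.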

Additional observations from a re-analysis of the deposited data

Results flagged for a closer look

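In 3 of 30 sets of 6 libraries of a population, the lowest or highest library stood apart from the other 5 by Dixon's test (gap over range above 0.625). Chance marks about 1 in 20 sets, and the libraries of a set are different conditions. Moxd1 had a log2 CPM of 2.606 in HPSC cyclopamine BRE-GFP positive, above the other HPSC libraries. Best1 had a log2 CPM of -2.585 in MC fresh BRE-GFP positive, where it had 0 counts, below the other MC libraries. Nlgn3 had a log2 CPM of 0.819 in the same library, also below the other MC libraries.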

How the results depend on the processing

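For the median log2 fold change of the 10 genes in HPSC over EC and MC over EC, RLE scaling, no filter and DESeq2 gave -5.92 to -5.87 and 0.39 to 0.41, against -5.90 and 0.38. Of the 10, edgeR called 1 for explant over fresh across populations, 2 with no filter on low counts, 4 with DESeq2, and 0 to 2 with 1 library left out. In EC it called 0, 2 with no filter, 4 with DESeq2, and 0 to 1 with 1 library left out, and in MC 0, 1 with no filter and 1 with DESeq2. Fits on EC or MC alone called 0. For cyclopamine and BRE-GFP comparisons every alternative called 0 of the 10.

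Some log2 fold changes crossed 0 when 1 library was left out, with lowest and highest values as follows. For explant over fresh across populations, Moxd1 ranged from -0.33 to 1.16 and Myog from -0.20 to 0.60. For cyclopamine over explant, Matn3 ranged from -1.45 to 0.19, Fap from -0.50 to 0.97, Best1 from -0.28 to 0.59 and Zcchc5 from -0.43 to 0.77. For BRE-GFP positive over negative, Matn3 ranged from -0.23 to 0.50 and Nlgn3 from -0.74 to 0.15. For explant over fresh in MC, Myog ranged from -0.08 to 0.44, Best1 from -1.52 to 9.35 and Nlgn3 from -0.80 to 4.45. The cause was not tested. Over all genes, calls in edgeR and DESeq2 were 52 and 796 for HPSC over EC, 413 and 1233 for MC over EC, 22 and 465 for explant over fresh, 0 and 175 for cyclopamine over explant and 9 and 365 for BRE-GFP positive over negative. Without 1 library these edgeR counts were 1 to 77, 258 to 492 (258 without EC fresh BRE-GFP negative), 7 to 39, and 0 to 6 for BRE-GFP. No paired analysis was possible because the labels give no replicate numbers that could serve as a block; matching was by condition, as blocks over all populations and as model terms within EC and MC. With 1 library per combination, effects are judged against residual variation between conditions, and the shallowest HPSC library limits what could be seen of genes near 0.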
